A study of Mus musculus with 6 samples.

Results

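The genes described here are members of the Notch signalling pathway, chosen by name as the receptors Notch1, Notch2, Notch3 and Notch4, the ligands Jag1, Jag2 and Dll4, and the target genes Hes1, Hey1 and Heyl. Each of the 10 genes was read by 1 mRNA probe, matched through the RefSeq accession that the array files give for the probe, so 10 of the 22464 mRNA probes on the array were members. The arrays compared whole testis of male C57/BL6 mice at 6 days after birth (neonatal) with whole testis at 8 weeks of age (adult). Each age was measured on 3 arrays, 1 for each biological replicate, and every replicate came from its own set of mice.

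Notch signalling passes between neighbouring cells. A ligand of the Delta or Jagged family on the surface of one cell binds a Notch receptor on the next, proteases then cut the receptor, and its inner part enters the nucleus, where it joins the DNA-binding protein Rbpj and a Mastermind protein to switch on target genes, above all transcriptional repressors of the Hes and Hey families. In the testis the pathway is known from Sertoli cells, Leydig cell precursors, blood vessels and germ cells, while Notch4 and Dll4 are best known from endothelium and Notch3 from the mural cells of vessels.

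Levels are given as the normalized log2 signal, a log2 ratio of the probe to the 75th percentile of all probes of that array, so 0 stands for that percentile. A floor of -7.23 was set under all values. Differences are adult minus neonatal, and the tests are limma's with Benjamini-Hochberg adjustment over all lncRNA and mRNA probes tested. The scanner marked some spots as outliers, and these marks fell on 17 of the 60 spots of the members, 13 of 30 on the neonatal arrays and 4 of 30 on the adult arrays. With such spots left out, as in the principal analysis, only Notch3, Jag2, Dll4 and Hes1 were tested, since Notch4, with no marked spot, was not above background and the other 5 kept fewer than 2 complete pairs. With them kept, all but Notch4 were tested. Both versions are given, because the first leaves 6 members without a test.

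Of the 4 members tested with outlier-marked spots left out, 4 were lower in adult testis and 0 higher at an adjusted p of at most 0.05, where 45.8% of all 15121 mRNA probes tested were lower and 29.7% higher. At a change of at least 5-fold, 2 members were lower and 0 higher, against 13.7% and 12.6% of the mRNA probes. With the spots kept, 8 of 9 tested members were lower and 0 higher, against 49.5% and 29.8% of 19310 mRNA probes, and 4 were lower by at least 5-fold, against 15.4% lower and 12.8% higher. Jag2 was in both counts, but it entered the test through its neonatal signal alone and could only be lower; without it, 3 of 3 and 7 of 8 members were lower. In 7 of the 8 members well above background at both ages every adult value lay below every neonatal value, which held for 45.7% of the mRNA probes that rose clearly over background somewhere. The members' count is to be read against these shares, which depend on the background correction: with normexp and marked spots left out, 5852 of the 15121 mRNA probes were lower and 6128 higher, and 3 of the 4 members were lower and 0 higher. With spots kept, the 4 members lower by at least 5-fold became 7 with quantile normalization, with arrays scaled to their median or with the authors' log2 values. The median log2 fold change of the 9 members tested with spots kept was -2.30 (-2.29 with Jag2 at its lower bound, -2.33 without Jag2), beside -0.50 over all mRNA probes. In bulk samples such as whole testis, fewer cells of a type and less RNA per cell cannot be told apart.

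The receptor Notch1 is the most studied of the family and is cut at the membrane on activation. On the 3 neonatal arrays Notch1 (NM_008714) read 1.48, 0.60 and -0.08, and on the 3 adult arrays -2.50, -2.55 and -3.17. The groups did not overlap, and the neonatal arrays were spread more widely than the adult ones (mean 0.66 ± 0.78 and -2.74 ± 0.37, SD, n = 3). The spots of neonatal replicates 1 and 2, the brighter ones, were marked as outliers, so that only 1 neonatal spot was free of a mark. With all spots, Notch1 fell by 3.40 on the log2 scale (SE 0.226, limma adjusted p 0.000293), a 10.6-fold difference, and 4.86% of mRNA probes fell by more. The differences within the replicate pairs were -3.97, -3.15 and -3.08. With the normexp background correction and all spots, the fitted difference of Notch1 was smaller, at -2.56 (limma adjusted p 0.00181).

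Notch2, a receptor expressed in many tissues, had the tightest replicates among the receptors above background. Notch2 (NM_010928) read 2.13, 2.31 and 2.25 in neonatal testis and -0.17, -0.15 and -0.11 in adult testis. The values of an age lay close together and the groups far apart (2.23 ± 0.09 and -0.14 ± 0.03, SD, n = 3). With all spots, 3 of them marked as outliers, Notch2 fell by 2.38 (SE 0.114, limma adjusted p 0.000131), which is 5.20-fold and just past the 5-fold threshold.

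Notch3 was the only receptor above background with no marked spot. Notch3 (NM_008716) read -0.73, -0.57 and 0.35 in neonatal testis and -3.55, -3.91 and -2.69 in adult testis. Replicate 3 was the highest of both ages, and the pair differences were alike at -2.83, -3.33 and -3.04. Notch3 fell by 3.07 (SE 0.142, limma adjusted p 0.000238), an 8.38-fold difference.

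Notch4, a receptor known from endothelial cells, was not well above background on any of the 6 arrays. Notch4 (NM_010929) lay at the floor of -7.23 on 5 arrays and at -7.05 on the array of adult replicate 1. No fold change is given for Notch4.

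Among the ligands, Jag1 (NM_013822) read -0.52, -0.67 and -2.03 in neonatal testis and -3.10, -2.84 and -4.15 in adult testis. Replicate 3 was the lowest of both ages, and the lowest neonatal value stood 0.81 above the highest adult value. With all spots, the neonatal spots of replicates 1 and 2 marked as outliers among them, Jag1 fell by 2.29 (SE 0.148, limma adjusted p 0.000271), a 4.89-fold difference. The pair differences of -2.58, -2.17 and -2.12 were closer to each other than the values of an age (SD 0.83 and 0.70, n = 3). With the normexp background correction and all spots, the fitted difference of Jag1 was -1.53 (limma adjusted p 0.00507).

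Jag2, the other Jagged ligand measured here, was dim. Jag2 (NM_010588) read -4.76, -5.48 and -4.54 in neonatal testis, well above background on all 3 arrays, and lay at the floor of -7.23 on all 3 adult arrays. On no adult array was it well above background, so only a bound can be given: the neonatal level exceeded the adult level at least 3.77-fold, taking for each adult array the lowest normalized signal of any probe well above background. The fitted difference of -2.30 (SE 0.221, limma adjusted p 0.00136) depends on the floor, and with the normexp background correction it was -0.38 (limma adjusted p 0.0753).

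Dll4, a ligand known from the sprouting of vessels, had narrow replicates. Dll4 (NM_019454) read -1.79, -1.74 and -2.10 in neonatal testis and -4.15, -4.08 and -4.23 in adult testis. The groups did not overlap and each was narrow. With the marked spot of neonatal replicate 3 left out, Dll4 fell by 2.35 (SE 0.139, limma adjusted p 0.00125), a 5.10-fold difference, and with that spot kept by 2.28, a 4.84-fold difference, so the 5-fold threshold was passed in the former only.

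Hes1 encodes a repressor and is a widely used readout of Notch activity. Hes1 (NM_008235) read 2.52, 2.43 and 2.59 in neonatal testis and 0.62, 0.77 and 1.05 in adult testis. The groups did not overlap, and the pair differences were -1.89, -1.65 and -1.54. With the marked spot of neonatal replicate 3 left out, Hes1 fell by 1.77 (SE 0.154, limma adjusted p 0.00285), a 3.42-fold difference. With all spots, 26.1% of mRNA probes fell by more.

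Heyl had the largest difference of the 8 members well above background at both ages. Heyl (NM_013905), a Hey family repressor, read 0.85, 1.23 and 0.47 in neonatal testis and -3.76, -3.40 and -3.90 in adult testis. The pair differences of -4.61, -4.63 and -4.37 were nearly equal. With all spots, those of neonatal replicates 1 and 3 marked as outliers among them, Heyl fell by 4.53 (SE 0.124, limma adjusted p 3.32e-05), a 23.2-fold difference, and 0.901% of mRNA probes fell by more. Over the alternatives run for Heyl, the log2 fold change ranged from -4.80 to -3.87.

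Hey1, the other Hey family member measured, did not pass the test. Hey1 (NM_010423) read 1.39, 1.07 and -0.37 in neonatal testis and 0.89, 0.87 and -0.50 in adult testis, and all 6 spots were marked as outliers. The groups overlapped, because replicate 3 was low at both ages, while the adult value was below the neonatal value of the same number by 0.50, 0.20 and 0.13 on the log2 scale. The fitted difference was -0.27 (SE 0.134, limma adjusted p 0.127), and with each array scaled to its median in place of its 75th percentile it was -0.53 with an adjusted p of 0.0270 in limma. This does not show that the level was equal at both ages.

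**Figure D1:**
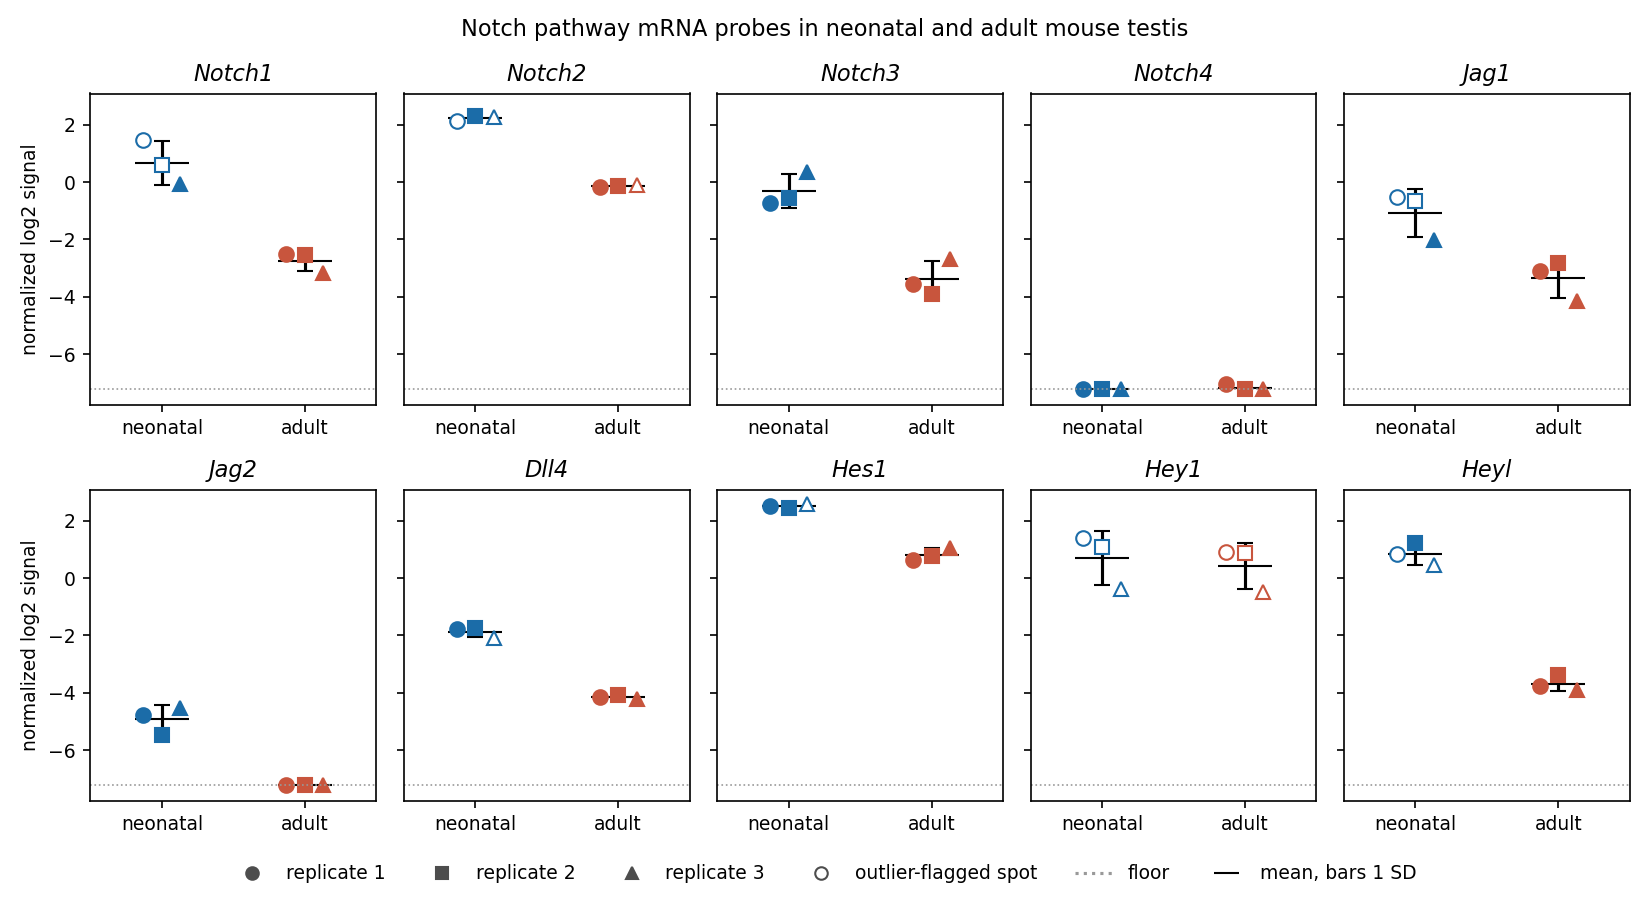
Normalized log2 signal (vertical axis, 0 = 75th percentile of the array) of each member's probe on the 3 neonatal and 3 adult arrays. Symbols stand for replicates, open symbols for spots marked as outliers, the horizontal bar for the mean and the vertical bar for 1 SD; the dotted line is the floor of -7.23. Notch4 lies at the floor or just above it at both ages and Jag2 in adult testis only, and Hey1 overlaps between ages.

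Per the scan records in the files, replicates 1 and 2 of both ages shared 1 slide and replicate 3 of both ages another. Arrays of replicate 3 were dimmer (75th percentile of the signal 1387 and 749 against 1428 to 2954 on the other arrays) and had more outlier marks, on 40.6% of mRNA probes in neonatal and 31.9% in adult replicate 3 against 7.61% to 14.2% on the other arrays. Each pair lies within a slide, so the third pair difference of each gene is the value within the second slide. On the slide of replicates 1 and 2 alone and with spots kept, the differences were -3.56 for Notch1, -2.38 for Notch2, -3.08 for Notch3, -2.37 for Jag1, -2.11 for Jag2, -2.35 for Dll4, -1.77 for Hes1, -0.35 for Hey1 and -4.62 for Heyl. With the slide as a block in place of the replicate number, the adjusted p of limma was between 1.05e-05 for Heyl and 0.000396 for Jag2 among the members that passed, and 0.104 for Hey1.

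The wider pathway list holds 68 genes in 9 roles, the 10 members included, and 67 of them had a probe. With marked spots left out, 50 genes were tested, of which 33 (66.0%) were lower and 9 (18.0%) higher in adult testis at an adjusted p of at most 0.05, beside 45.8% and 29.7% of all mRNA probes tested. Without the members, 29 of 46 were lower, 9 higher and 8 did not pass, and the median log2 fold change was -1.08, beside -0.40 over all mRNA probes tested. With spots kept, 36 of 57 without the members were lower and 9 higher, with a median of -0.98, beside 49.5% lower, 29.8% higher and a median of -0.50 over all mRNA probes tested in that fit. Without the replicate block and with marked spots left out, 29 genes of the whole list were lower and 6 higher. Among the 46 genes tested that were well above background on an array of each age, 32 were lower and 8 higher. The tests of single genes of the list are those with marked spots left out unless stated. Each count by role below is to be read against the 45.8% lower and 29.7% higher of all mRNA probes tested.

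The remaining ligands moved in opposite directions. Dll1, an activating ligand, read -2.45, -2.80 and -2.23 in neonatal and -4.18, -4.08 and -4.30 in adult testis, and fell by 1.69 (limma adjusted p 0.00203). Dll3, a divergent ligand that acts within the cell and does not activate Notch in trans, read 1.50, 1.21 and 1.59 in neonatal and 4.46, 4.40 and 5.10 in adult testis. Dll3 was 9.29-fold higher in adult testis (limma adjusted p 0.000238), the only ligand of the list in this direction. Of the ubiquitin ligases that act on ligands, 2 of 4 were tested and 1 passed: Neurl1b was 16.2-fold lower in adult testis (limma adjusted p 0.000122).

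The genes that glycosylate the receptor were lower in adult testis in 5 of 5 cases. Lfng, a Fringe glycosyltransferase that changes which ligands a Notch receptor answers to, read 2.00, 2.38 and 2.65 in neonatal and -2.33, -2.31 and -1.78 in adult testis, a 22.3-fold difference (limma adjusted p 0.000123). Its relative Mfng was 8.36-fold lower (limma adjusted p 0.0025). Pofut1, which adds the fucose that Fringe proteins extend, read -2.19, -2.16 and -3.76 in neonatal testis and -6.06 in adult replicate 1, and was at the floor on the other 2 adult arrays (limma adjusted p 0.000991). As it was well above background on only 1 adult array, no fold is given. Poglut1, which adds glucose to the receptor, was 6.37-fold lower (limma adjusted p 0.0013), and Rfng fell by 0.60 (limma adjusted p 0.0357) with overlapping groups. Without the replicate block, the adjusted p of Rfng in limma was 0.597.

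Among the proteases that cut the receptor, 4 of 7 tested genes were lower and 1 was higher. Over all mRNA probes tested, 45.8% were lower and 29.7% higher. Adam17, a surface protease, fell by 2.05 (limma adjusted p 0.00173), and Aph1a, a subunit of gamma-secretase, by 2.11 (limma adjusted p 0.00171), while its paralogue Aph1c was higher by 1.33 on the log2 scale (limma adjusted p 0.0015). Of the 7 tested genes of receptor turnover, 3 were lower, 2 higher and 2 did not pass. Dtx1, a Deltex ubiquitin ligase, was 14.7-fold lower (limma adjusted p 0.00313), and Nrarp, a feedback inhibitor that Notch itself induces, was 6.37-fold lower (limma adjusted p 0.0019). Numb, an inhibitor of Notch, was higher by 1.16 (limma adjusted p 0.00214).

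In the nuclear complex, 5 of 7 tested genes were lower and 0 higher. Rbpj was read by 3 probes of different accessions, all dim, and by the brightest it read -5.23, -5.03 and -5.13 in neonatal and -6.66, -6.98 and -6.06 in adult testis. That probe was lower in adult testis (limma adjusted p 0.00568), where it was well above background on 2 of the 3 arrays. Of the other 2 probes, 1 was well above background on 1 adult array, and the other on none, so that its neonatal level exceeded the adult level at least 2.53-fold. The Mastermind coactivators Maml1 and Maml3 fell by 1.73 each (limma adjusted p 0.003 and 0.00237), and Maml2 was well above background on 1 adult array only and did not pass (limma adjusted p 0.294). Of 10 tested corepressor genes, 7 were lower and 2 higher; Tle4, a Groucho family corepressor, fell by 2.20 (limma adjusted p 0.0015) and Spen, which binds Rbpj, rose by 1.02 (limma adjusted p 0.00811).

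The Hes and Hey genes beyond the members divided evenly, with 3 lower and 3 higher of 6 tested, though Hes7, one of the higher ones, had an adjusted p of 0.556 in limma without the block and Hes2, another, was well above background on 1 adult array only. Hes5, like Hes1 a direct Notch target, read -0.68, -0.66 and -0.51 in neonatal and -3.49, -3.63 and -3.20 in adult testis and was 7.44-fold lower (limma adjusted p 0.000919). Hes6, which opposes Hes1, fell by 2.08 (limma adjusted p 0.000283). Hey2 read -2.50, -2.72 and -4.71 in neonatal and -4.65, -4.58 and -6.32 in adult testis. Its groups overlapped because replicate 3 was low at both ages, yet the pair differences were alike, and Hey2 fell by 1.87 (limma adjusted p 0.000806 with the replicate block). Without the block, its adjusted p in limma was 0.0765. Hes3 was higher in adult testis (limma adjusted p 0.000162), from -6.61, -6.77 and -7.23 to -3.54, -3.39 and -3.92. It was well above background on 2 of the 3 neonatal arrays and at the floor on the third, so no fold is given.

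**Figure D2:**
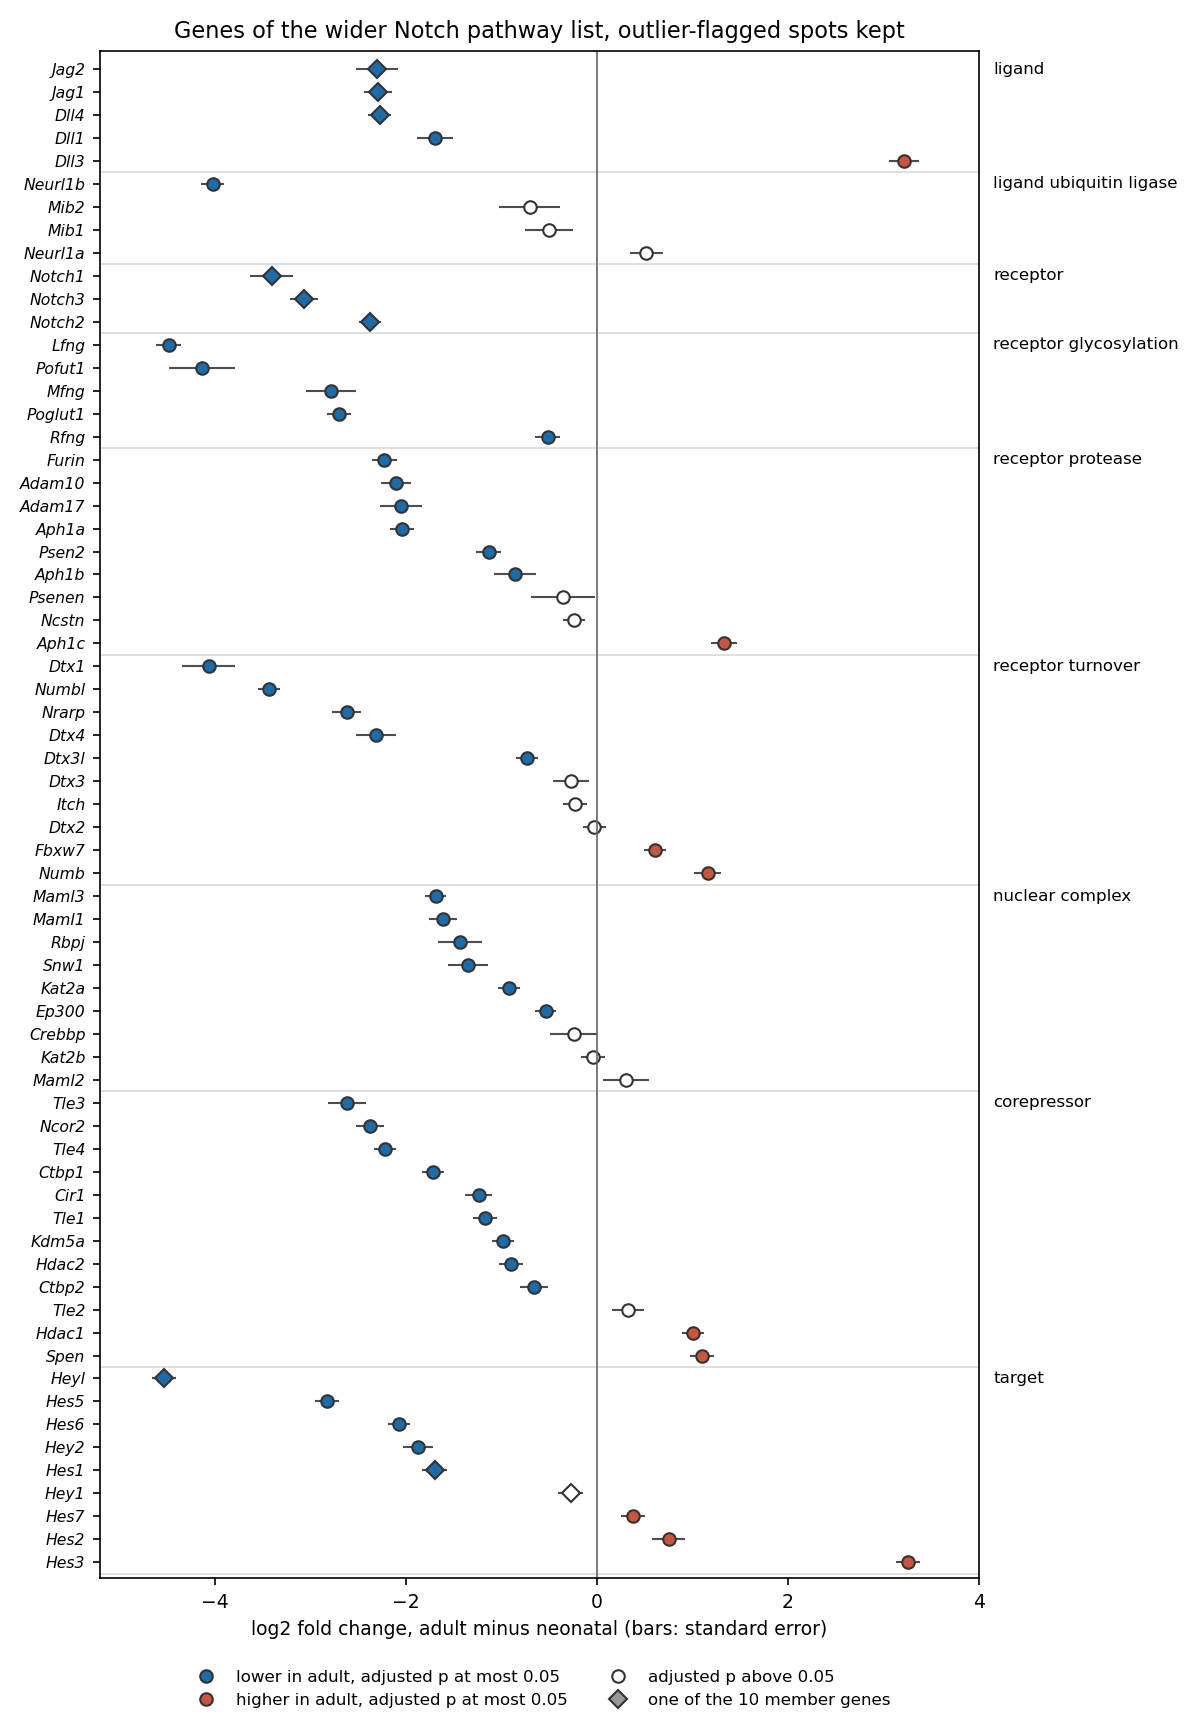
Log2 fold change (horizontal axis, adult minus neonatal) of each gene of the wider list by role, with spots marked as outliers kept. Points are limma estimates, bars are standard errors, filled points have an adjusted p of at most 0.05 and diamonds are the members. Heyl (-4.53) and Lfng (-4.48) lie at the low end, and Dll3 (3.22) and Hes3 at the high end; the positions of Hes3, Jag2 and Pofut1 depend on the floor.

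Promoter windows are given as a description. A link between their sequence and the differences between ages was not tested. A RefSeq table on GRCm38.p6 with 250 bases before and 50 after the start of genes held Notch1, Notch2, Notch3, Notch4, Jag1, Jag2 and Dll4. It had no window for the target genes Hes1, Hey1 and Heyl, so these were not examined. The letters TGGGAA, the core of the site that Rbpj binds, or their reverse complement TTCCCA, were in 0 of the 7 member windows. Of the 32851 windows of the table, 25.6% held them. Of the 53 genes of the wider list that the table held, 15 had them in a window. Some of these genes had several windows, so that count by gene is not comparable with the share of windows. A match or its absence describes these letters in this window and nothing more. Windows of Hes5, Hey2, Lfng, Kat2a and Rbpj held 2 matches each, where 3.79% of all windows held at least 2. By the brightest probe of each gene, Hes5, Hey2 and Lfng had the largest differences between ages of these genes. A dimmer probe of Kat2a fell by 2.46 (limma adjusted p 0.00261), which is more than Hey2 did. The upstream bases of Hes5, Hey2 and Lfng are given with the letters in capitals. The second match of Hey2 crosses the start of the gene and is left out.
Hes5 (chr4:154960673-154960922, plus strand): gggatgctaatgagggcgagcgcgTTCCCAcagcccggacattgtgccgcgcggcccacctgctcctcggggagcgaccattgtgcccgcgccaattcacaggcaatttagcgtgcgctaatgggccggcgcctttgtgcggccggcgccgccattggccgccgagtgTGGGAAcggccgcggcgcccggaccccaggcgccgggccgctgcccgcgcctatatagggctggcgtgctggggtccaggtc
Hey2 (chr10:30842784-30843033, minus strand): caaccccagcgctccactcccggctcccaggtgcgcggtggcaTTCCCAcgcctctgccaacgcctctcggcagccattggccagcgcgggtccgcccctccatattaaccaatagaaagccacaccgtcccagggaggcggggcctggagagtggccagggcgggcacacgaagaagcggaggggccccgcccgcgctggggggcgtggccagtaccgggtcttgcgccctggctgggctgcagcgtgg
Lfng (chr5:140607091-140607340, plus strand): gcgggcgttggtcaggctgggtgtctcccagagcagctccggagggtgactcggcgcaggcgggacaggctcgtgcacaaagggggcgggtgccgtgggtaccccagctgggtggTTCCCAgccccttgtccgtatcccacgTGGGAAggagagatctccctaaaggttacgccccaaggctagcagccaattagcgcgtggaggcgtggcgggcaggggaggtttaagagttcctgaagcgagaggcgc

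The members' windows also differed in CpG content. The windows held 63 CpG in Jag2, 41 in Notch2, 25 in Notch3, 23 in Notch1, 22 in Jag1, 17 in Dll4 and 5 in Notch4, beside a median of 7 over all windows of the table, of which 43.6% held 5 or fewer. For the highest, the middle and the lowest of these counts, the 150 bases before the start are given with each CpG in capitals.
Notch1 (chr2:26503823-26503972, minus strand): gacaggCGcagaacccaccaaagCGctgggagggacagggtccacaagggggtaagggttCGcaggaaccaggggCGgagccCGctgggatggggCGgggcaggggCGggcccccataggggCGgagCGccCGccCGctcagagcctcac
Jag2 (chr12:112929496-112929645, minus strand): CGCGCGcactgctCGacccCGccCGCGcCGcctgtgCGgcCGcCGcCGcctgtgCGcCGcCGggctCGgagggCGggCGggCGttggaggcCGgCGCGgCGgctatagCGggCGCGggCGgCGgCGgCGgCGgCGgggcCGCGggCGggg
Notch4 (chr17:34564145-34564294, plus strand): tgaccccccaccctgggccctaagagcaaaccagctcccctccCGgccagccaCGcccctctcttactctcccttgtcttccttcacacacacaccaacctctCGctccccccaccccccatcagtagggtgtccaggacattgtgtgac

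The genomic annotation of the study pairs 22 lncRNAs with genes of the wider list. These lncRNAs were chosen by the study for their change on these arrays, so their values are a description with no test, with marked spots kept unless stated. The labelled material was made from double-stranded cDNA according to the methods, so for exons that overlap on opposite strands the strand that a probe read cannot be told apart. BC023886, an exonic antisense lncRNA of Notch1, read -2.80, -2.93 and -3.25 in neonatal and 0.10, 0.04 and -0.10 in adult testis, opposite in direction to Notch1. AK044580, exonic antisense of Dll1, read -4.72, -4.71 and -5.33 in adult testis and stayed at background on the neonatal arrays, a difference of at least 4.64-fold, while Dll1 was lower in adult testis. The exonic antisense lncRNA of Dll4, uc008ltq, read -3.48, -3.74 and -3.94 in neonatal and -7.17, -7.05 and -6.68 in adult testis, where it was well above background on 1 array only, the same direction as Dll4.

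Intergenic lncRNAs paired with Jag2, Hey1 and Hes6 were higher in adult testis. AK018992 beside Jag2 read -1.62, -1.47 and -1.85 in adult testis and stayed at background on the neonatal arrays, a difference of at least 44.7-fold. AK030060 beside Hey1 was at least 15.7-fold and NR_026924 beside Hes6, with its marked spot of adult replicate 3 left out, at least 422-fold higher in adult testis. Intronic lncRNAs of Maml3 on the same strand were lower in adult testis as Maml3 was: AK038829 by at least 10.2-fold, AK044131 by at least 4.64-fold, AK017326 by at least 3.12-fold and AK086422 by at least 2.17-fold. The others were uc007xzn, uc007xzo, uc009qfh, AK016552, AK017039, uc007hip, uc008gue, uc008pqo and uc009odt, higher in adult testis, and AK030733, AK032419 and AK043880, lower in adult testis.

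Marker lists of 8 testicular cell types were read on the same arrays, with the summed signal of a list's probes given in multiples of the 75th percentile of each array. The most abundant gene of a list is the one whose probe had the highest mean log2 signal, named for each age where the ages differ; probes of different genes are not on a common scale, so this order is approximate. The spermatid list, with 7 of 7 probes well above background on all arrays of both ages, summed to 0.708, 0.745 and 0.833 in neonatal and 1121, 1340 and 1531 in adult testis, with Tnp1 the most abundant in neonatal and Prm2 in adult testis; Prm1 and Prm2 rose by 12.47 and 14.32 on the log2 scale. With marked spots kept, 7 of 7 spermatid and 6 of 8 spermatocyte probes were higher at an adjusted p of at most 0.05 in limma, and 1 spermatocyte probe, that of Dmc1, was lower (limma adjusted p 0.00027), well above background on 1 adult array. Over all mRNA probes tested in that fit, 29.8% were higher and 49.5% lower, and the counts of every marker list are to be read against these shares. The spermatocyte list summed to 25.4, 22.0 and 31.8 in neonatal and 272, 286 and 347 in adult testis, with Ldhc (limma adjusted p 0.000507, and 0.0514 without a block) the most abundant in neonatal and Pgk2 in adult testis; Sycp1 rose by 0.84. Sycp3 did not pass (limma adjusted p 0.945), with pair differences of -3.30, 1.72 and 1.86 and 5 of its 6 spots marked as outliers. The neonatal sum of the spermatocyte list is a signal of its probes and does not by itself show spermatocytes at that age.

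The summed signals of the endothelial, smooth muscle and pericyte, Sertoli and spermatogonia lists were lower in adult testis. Their probe counts stand beside 49.5% lower and 29.8% higher over all mRNA probes tested with spots kept. The endothelial list summed to 10.1, 11.3 and 16.7 in neonatal and 2.85, 2.47 and 3.88 in adult testis, with 10 of 10 probes lower with spots kept; Pecam1 fell by 3.12 and Cdh5, the most abundant, by 2.55. Vwf, well above background on 1 adult array, had an adjusted p of 0.145 in limma with the slide as block and 0.220 without a block, and Esam 0.0801 without a block. The smooth muscle and pericyte list summed to 27.1, 28.0 and 35.3 against 5.54, 4.95 and 7.80, with 7 of 8 tested probes lower. Its most abundant gene Myh11 fell by 2.22 and Acta2 by 2.01, while Cnn1 was not well above background at either age and Rgs5 (limma adjusted p 0.0524 without a block) and Cspg4 were not in adult testis. Rgs5 and Cspg4 are among the 7 lower probes, but they entered the test through their neonatal signal alone and could only be lower.

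The Sertoli list summed to 87.2, 93.9 and 76.0 in neonatal and 26.3, 23.3 and 21.5 in adult testis, with 9 of 9 probes lower; Sox9 fell by 3.12, Amh, well above background on 2 adult arrays, by 1.59 and Inha, the most abundant, by 1.87, and Cldn11 had an adjusted p of 0.161 in limma without a block. The spermatogonia list summed to 12.8, 13.1 and 15.7 against 3.67, 3.45 and 4.37, with 7 of 9 tested probes lower and 1 higher. Zbtb16 fell by 3.64 and Lin28a, the most abundant, by 2.49. The higher probe was that of Id4, which rose by 2.82 (limma adjusted p 0.00015, 1 spot marked), and Nanos3 did not pass (limma adjusted p 0.107). Gfra1 was not well above background at either age, and Ret and Nanos2 were not in adult testis. Ret and Nanos2 are among the 7 lower probes, but they entered the test through their neonatal signal alone and could only be lower. The median log2 fold change was -1.87 for the endothelial, -2.00 for the smooth muscle and pericyte, -1.87 for the Sertoli and -2.99 for the spermatogonia list (-2.96 with bounds), beside -2.30 for the members. The part of these cell types in the members' lower signal was not tested.

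The Leydig and macrophage lists did not move the same way as the members. The Leydig list summed to 31.9, 35.0 and 30.2 in neonatal and 82.7, 69.1 and 63.8 in adult testis, with 4 of 8 probes higher and 2 lower. Without Insl3, the most abundant in adult testis, which had 5 of its 6 spots marked, the sums were 27.0, 29.6 and 28.2 in neonatal and 27.1, 29.9 and 28.6 in adult testis, though single genes of the list moved in both directions. Hsd3b6 rose by 6.18 (limma adjusted p 0.000545, 3 spots marked) and Cyp11a1 by 1.30, Hsd3b1, the most abundant in neonatal testis, fell by 1.07, and Cyp17a1 differed by 0.77 (limma adjusted p 0.165). The macrophage list summed to 5.15, 5.03 and 4.09 against 4.53, 4.64 and 4.39, with 1 of 4 probes higher and 1 lower. Adgre1 fell by 0.86, and Csf1r and Mrc1, the most abundant in neonatal and adult testis, differed by -0.43 and 0.37 with an adjusted p of 0.0528 and 0.0535 in limma (0.0280 and 0.0232 with the slide as block). With marked spots left out, Csf1r was lower in adult testis by 0.57 (limma adjusted p 0.0380). All other list values were computed with marked spots kept, and the part of the cell types in any Notch gene's value was not tested here either.

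**Figure D3:**
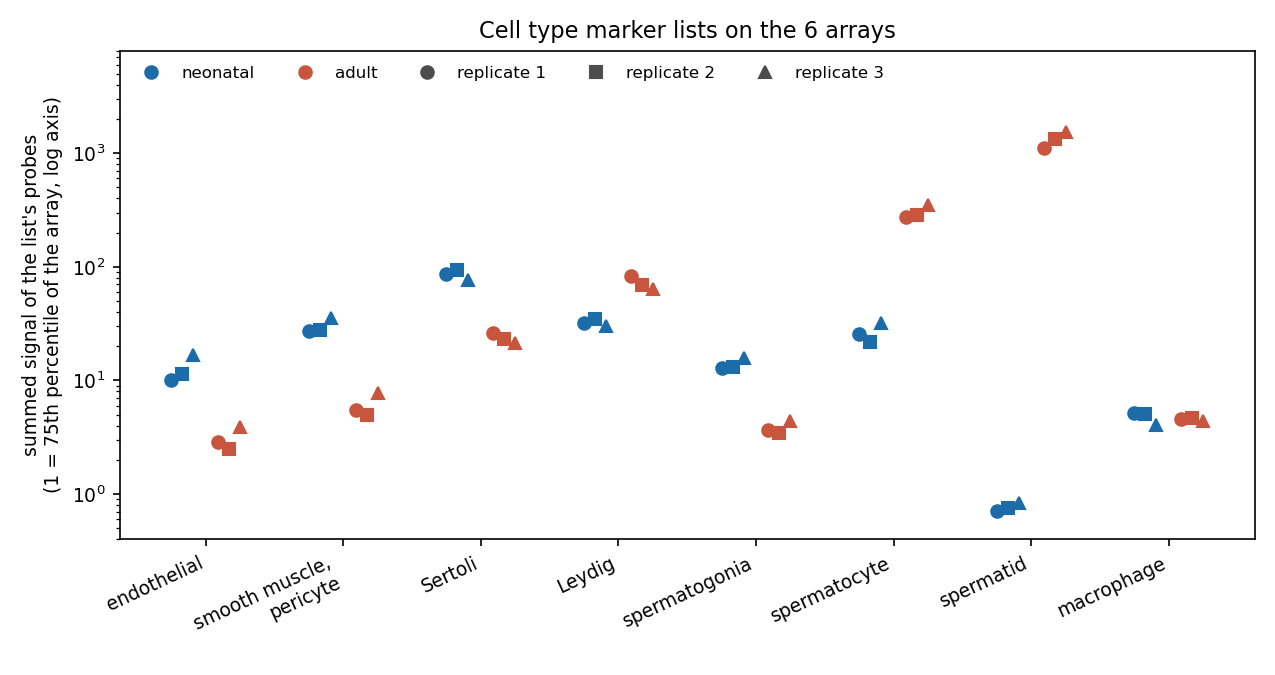
Summed signal of the probes of each cell type list (vertical axis, log scale, 1 = 75th percentile of the array) on the 3 neonatal and 3 adult arrays, with symbols for replicates. The spermatid list stands at 0.708 to 0.833 in neonatal and 1121 to 1531 in adult testis, while the endothelial, smooth muscle and pericyte, Sertoli and spermatogonia lists are lower on every adult array than on any neonatal array.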

How the data were processed

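Signal intensities of 6 Agilent arrays, as deposited by the authors per the file headers, came from Agilent Feature Extraction 10.5.1.1, background-subtracted within the array and not normalized between arrays. The authors' log2 values, also deposited, served as an alternative. Each array, controls aside, was scaled to its 75th percentile and put on the log2 scale with 1 floor for all arrays, the value of a signal of 5 on the dimmest array, so that on brighter arrays it stands for a higher signal. Spots marked as outliers were left out, and 2 complete pairs were needed. limma 3.58.1 (R 4.3.3) was run on every lncRNA and mRNA probe that passed the scanner's background test on 1 array or more (24517 probes, 29888 with marked spots kept). The replicate number was a block, since the study paired its samples. The fit was also tested on simulated data, but the outcome is not given here and no result rests on it. Tables were made with pandas 2.3.3 in Python 3.11.15.

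mRNA probes were named through RefSeq accessions with a GRCm38.p6 table, which matched 21905 of 22464 probes; the files name mm9, so coordinates are given only for the promoter windows of that table. For genes of the wider list with several probes, the probe with the highest mean signal was used. The members, gene lists and tests were chosen with earlier results of these data known. The text names every member, a set group of genes of the wider list, those past an adjusted p of 0.05 and 5-fold, up to 2 examples per role, the first 2 and the most abundant genes of each marker list, and genes that qualify a count. Of the marker genes, Rhox5 and Cd68 had no probe.

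The pairing was checked by correlating, across 14886 probes, each array's deviation from the mean of its age between ages. Same-numbered arrays correlated at 0.341, 0.248 and 0.587, but arrays of different number on the same slide correlated at 0.286 and 0.323, so pairing and slide cannot be told apart. Without the block, 4 member probes were lower in adult testis, as with it. The lowest signal of a spot well above background was 6.09 to 24.0 over the arrays, and the number of arrays limits the precision. Alternatives were other scalings, floors and background corrections (normexp used median spot signals, where mean signals had been planned), filters, blocks, the methods' t-test and leaving out replicates. Combinations with marked spots kept were added after the data were seen.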

Additional observations from a re-analysis of the deposited data

How the results depend on the processing

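No member's log2 fold change reversed under any alternative: of 148 values for the 9 members tested, 145 kept their side of the threshold. Jag2 lost its call with the normexp background correction (-0.38, limma adjusted p 0.0753, range over its alternatives 0.000325 to 0.0753), Hes1 with the methods' t-test after Benjamini-Hochberg adjustment (adjusted p 0.0778, range 0.000297 to 0.0778), and Hey1 gained one with arrays scaled to their median (adjusted p 0.0270, range 0.0270 to 0.695). The causes were not tested. Counts of members higher in adult testis were 0 under every alternative run, the methods' t-test before adjustment included.

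The 4 members lower in adult testis became 8 with marked spots kept, as more members are then tested, and ranged from 2 to 4 when replicates were left out, with 2 without replicate 1 and 2 without replicate 2, as fewer probes then keep enough spots. The 2 members lower by at least 5-fold became 4 with marked spots kept, 1 with normexp and 4 at a threshold of 2-fold, and ranged from 1 to 2 without single replicates. With marked spots kept, the 8 lower members ranged over 7 to 9. The 4 beyond 5-fold became 7 with quantile normalization, 7 with arrays scaled to their median and 7 with the authors' log2 values. The fitted folds of Jag1, Dll4 and Jag2 lay just under 5 (4.89, 4.84 and 4.93), though that of Jag2 depends on the floor and only a bound holds for it. Without single replicates, the count beyond 5-fold ranged from 4 to 6. Of the wider list, 33 genes were lower and 9 higher, and 29 and 6 without the replicate block; the methods' t-test after Benjamini-Hochberg adjustment gave 17 and 5, and leaving out replicates gave 12 to 33 and 4 to 8, with 13 and 4 without replicate 1 and 13 and 4 without replicate 2. The block changed no member's call.

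With marked spots kept, the median log2 fold change of all mRNA probes was -0.50 with the 75th percentile, -0.80 with quantile normalization, -0.76 with arrays scaled to their median and -0.14 with the normexp background correction, and that of Hey1 was -0.27, -0.30, -0.53 and -0.15. With marked spots left out, the medians were -0.40, -0.73, -0.65 and 0.02. Signal over background limits Jag2, Rbpj, Maml2, Pofut1, Hes3 and Notch4.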
